A study of Mus musculus with 24 samples.

Results

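The comparison described here is that of (+)-JQ1 with (−)-JQ1 at 0.5 µM after 12 h, the earlier time and the higher dose of a series of 24 RNA-seq libraries. Its members are the 3 libraries titled for each enantiomer at that dose and time, 6 of 24, and the 13801 of 26636 genes that reached 1 FPKM in 3 or more of the 24. The cells were neural progenitor cells from the cortices of C57BL/6 embryos at embryonic day 12, grown with B27 supplement and basic FGF, and taken at passage 3. In both groups they were moved to differentiation medium and given 0.5 µM of either enantiomer for 12 h. Per the labels, the libraries of a group came from 3 independent preparations, so p-values measure the spread between such preparations. The other groups of the series received 0.2 µM for 12 h, or either dose for 24 h, each with its own (−)-JQ1 libraries, and serve here for the questions of dose and time.

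(+)-JQ1 is a small molecule that fills the acetyl-lysine pocket of the bromodomains of the BET proteins. These proteins hold on to acetylated histones at promoters and enhancers, and they help bring the kinase complex P-TEFb to RNA polymerase II, which then passes from pausing into elongation. (−)-JQ1 has the same atoms and bonds in mirror-image arrangement and is used as the control compound that lacks this binding. Cortical progenitors make neurons first and glia later. A culture that leaves growth factor behind can hold progenitors, young neurons, astrocytes and cells of the oligodendrocyte lineage side by side.

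Values were FPKM, fragments scaled by gene length and by the mapped reads of the library, so levels can be compared between genes. The log2 fold changes below are differences of group means of log2(FPKM + 1), with their standard error (SE), and understate changes of genes with low values. Plain fold values are ratios of mean FPKM. Called means an adjusted p under 0.05 from limma with Benjamini-Hochberg adjustment over all 13801 genes. Read numbers per library are unknown. Relative depth, estimated from the spacing of low values, was 0.955 to 1.03 across the 6. Genes above 0 FPKM numbered 17358 to 17539 in the (+)-JQ1 libraries and 18080 to 18118 in the (−)-JQ1 libraries. The progenitor identity of the cultures was visible in both groups, with Fabp7 at 1410 FPKM or more and Sox2 at 192 FPKM or more in every library. The 12 microglial markers summed to at most 0.442 FPKM and the 7 erythroid ones to at most 0.564 FPKM per library. Of 10 endothelial markers, only Kdr reached the level to be tested. Of 5 pericyte and fibroblast markers tested, 4 were lower, and 2 to 4 without 1 of the 6 libraries. Their sum lay at 39.5 to 40.6 FPKM with (+)-JQ1 and 62.3 to 74.7 FPKM with (−)-JQ1. Acta2, smooth muscle actin, made up most of it. Col1a1 and Dcn averaged only 1.07 and 1.32 FPKM with (−)-JQ1. Neither was called without (−)-JQ1 replicate 3 (adjusted p = 0.118 and 0.0732). The part of these markers in the results below was not tested. In these bulk libraries, fewer cells of a type and less RNA per cell cannot be told apart.

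After 12 h of 0.5 µM (+)-JQ1, 5281 genes (38.3% of those tested) differed from (−)-JQ1. Of these, 1682 were higher (12.2%) and 3599 lower (26.1%). The falls were also the larger changes: 892 genes (6.46%) fell by at least 2-fold and 133 (0.964%) by at least 4-fold on the log2(FPKM + 1) scale, against 201 (1.46%) and 32 (0.232%) that rose as much. The median log2 fold change over all genes tested was −0.10. When libraries were scaled to a common median ratio in place of the deposited scale, this median moved up by 0.108 to 0.00, and the split became 2624 higher (19%) and 3017 lower (21.9%). Small changes and their counts therefore read differently on the 2 scales, and medians of gene lists below are to be read beside −0.10. Counts of called list members are to be read beside 12.2% higher and 26.1% lower, or 19% and 21.9% after the scaling. Falls were most frequent among weakly expressed genes. Of genes with a mean of 1 to 5 FPKM, 33.8% were lower and 9.38% higher, and of genes at 100 FPKM or more, 11.0% were lower and 12.6% higher. For 8030 genes (58.2%), the 3 values of one group did not overlap those of the other.

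**Figure D1:**
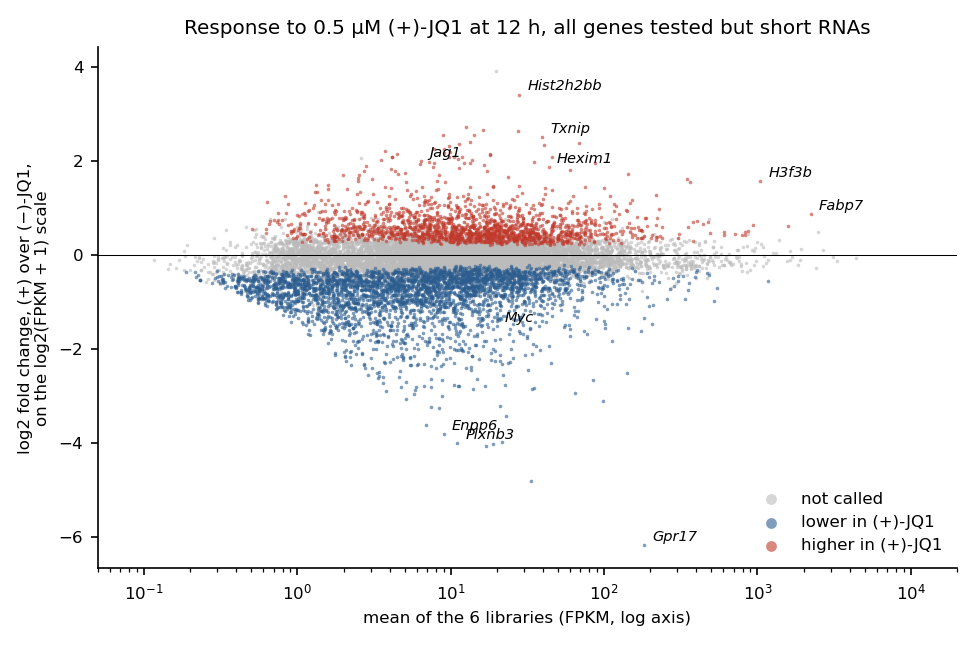
Log2 fold change of each gene between (+) and (−)-JQ1 at 0.5 µM and 12 h (vertical axis, log2(FPKM + 1) scale) against its mean over the 6 libraries (horizontal axis, FPKM, log axis). Called genes are coloured, 1682 higher and 3599 lower before short RNA genes are left out of the plot, and the downward cloud reaches further, to −6.17 for Gpr17.

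The transcripts of the BET and P-TEFb machinery itself changed at a few points. Of 21 genes tested, 5 were higher (23.8%, against 12.2% of all genes tested) and 3 lower (14.3%, against 26.1%). The 38.1% called is close to the 38.3% of all genes tested. In this list, 13 genes were not called, and the median log2 fold change was 0.21. Without 1 of the 6 libraries, 4 to 7 were higher and 3 lower. Hexim1, which encodes the protein that holds P-TEFb in an inactive complex, stood at 65.4, 72.1 and 69.4 FPKM in the (+)-JQ1 libraries and at 16.8, 19.8 and 17.5 FPKM in the (−)-JQ1 libraries. The groups lay far apart, 3.82-fold in the means, with a log2 fold change of 1.88 ± 0.09 (SE) and an adjusted p of 1.02e-12. Brd2 rose from 88.3 ± 3.65 to 152 ± 11.3 FPKM (mean ± SD of 3 libraries, as elsewhere), or by 0.77 ± 0.11 on the log2 scale. Mepce, the capping enzyme of the 7SK RNA in the same inactive complex, rose by 0.53 ± 0.12 on the log2 scale. Th1l, a subunit of the pausing factor NELF, fell from 20.1 ± 0.168 to 12.9 ± 0.347 FPKM. Brd3, another BET gene, and the kinase Cdk9 did not pass the test. Brd3 was at 32.4 ± 1.52 against 36.5 ± 1.22 FPKM (adjusted p = 0.247), and Cdk9 at 12.9 ± 0.813 against 11.4 ± 1.07 FPKM (adjusted p = 0.385). After the scaling to a common median ratio, 9 genes of the list were higher and 3 lower.

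Polr2a, the gene of the largest subunit of RNA polymerase II, stood at 103, 120 and 111 FPKM with (+)-JQ1 and at 38.1, 46.3 and 35.5 FPKM with (−)-JQ1, 2.79-fold higher (log2 fold change 1.46 ± 0.13, adjusted p = 2.09e-08). Of the 49 genes of Mediator, RNA polymerase II and the kinases that act with them, 6 were higher (12.2%) and 13 lower (26.5%), shares close to the 12.2% and 26.1% of all genes tested, and the median was −0.10. Among those that fell were the small polymerase subunit Polr2i, from 28.2 ± 1.11 to 15.2 ± 0.306 FPKM, and the Mediator subunits Med30 (16.5 ± 1.09 to 9.47 ± 0.301 FPKM) and Med24 (22.8 ± 0.0804 to 13.5 ± 2.01 FPKM).

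Myc, a growth-promoting transcription factor whose transcription is known to be sensitive to BET inhibition, was at 9.18, 8.34 and 12.1 FPKM with (+)-JQ1 and at 27.1, 29.5 and 33.1 FPKM with (−)-JQ1. All 3 treated values lay under all 3 controls, 3.03-fold lower in the means (log2 fold change −1.52 ± 0.14, adjusted p = 1.93e-08). Of 12 genes of the Myc network, 4 fell and 2 rose. Its partner Max fell by 0.45 ± 0.14 on the log2 scale, and Mxd1, which competes with Myc for Max, rose by 0.51 ± 0.10. Max was not called after the scaling to a common median ratio (adjusted p = 0.0978), or without (+)-JQ1 replicate 1 or 3 or (−)-JQ1 replicate 2 (adjusted p up to 0.0564). Of 20 genes that Myc is known to drive or that serve the nucleolus, 11 fell and 2 rose, with a median of −0.52. Rrs1, a ribosome assembly factor, fell from 20.7 ± 2.45 to 6.14 ± 0.686 FPKM, and Srm, spermidine synthase, from 36.9 ± 2.7 to 12.0 ± 3.08 FPKM. Mrto4, which acts in assembly of the large ribosomal subunit, fell from 21.3 ± 2.61 to 8.83 ± 0.746 FPKM. Odc1, the enzyme that makes putrescine just upstream of Srm and a textbook Myc target, moved the other way, from 91.3, 87.8 and 100 FPKM to 196, 195 and 218 FPKM. The ribosomal proteins themselves hardly entered the calls: 2 of 80 were lower, and the median was −0.18. Rps25, 1 of these, was not called without (−)-JQ1 replicate 3 (adjusted p = 0.116).

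Of the lists examined, clustered histone genes had the largest share of rises. Of 67 genes of the histone clusters tested, 63 were higher and none lower, with a median log2 fold change of 1.88, which the scaling to a common median ratio moved to 1.98. The 4 not called were Hist4h4, Hist1h2ao, Hist3h2bb-ps and Hist2h4, named here after their values were seen. Summed over the list, the libraries with (+)-JQ1 held 1500, 1450 and 1670 FPKM and those with (−)-JQ1 394, 337 and 436 FPKM, 3.96-fold less. All 5 classes rose. H1 genes rose 3.54-fold, from 72.8 ± 12.8 to 258 ± 6.87 FPKM. H2A genes rose 3.47-fold and H2B genes 3.69-fold, H3 genes 5.07-fold, and H4 genes 6.17-fold, from 38.8 ± 12.5 to 239 ± 34.5 FPKM. Short RNA genes apart, the 12 largest rises among called genes with groups that did not overlap and a mean of at least 5 FPKM held 11 histone genes. Hist2h2bb was at 44.2, 57.2 and 54.2 FPKM with (+)-JQ1 and 4.18, 2.94 and 4.81 FPKM with (−)-JQ1, and was the largest of them (log2 fold change 3.42 ± 0.31, adjusted p = 3.36e-08). Hist2h2aa1 went from 21.6 ± 1.95 to 116 ± 7.94 FPKM, and Hist1h4i from 6.13, 4.8 and 10.3 FPKM to 48.6, 41.0 and 53.2 FPKM. Copies within a class differ little in sequence, and reads could be shared between them, which leaves single-copy values uncertain. Most mRNAs of clustered histone genes are known to end in a stem-loop without poly(A), and the libraries were made from poly(A)-selected RNA. The values thus describe the histone transcripts that passed this selection, and the part of that step in the rise was not tested.

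**Figure D2:**
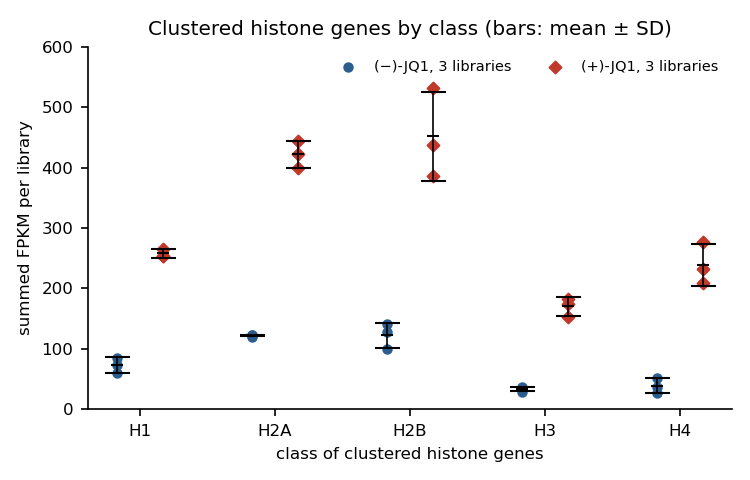
Summed FPKM of the clustered histone genes tested, by class (H1, H2A, H2B, H3, H4), in each of the 3 (−)-JQ1 and 3 (+)-JQ1 libraries, with bars for the mean and SD. The groups do not overlap in any class, and H4 rises from 38.8 to 239 FPKM.

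Promoters of 5 genes that rose are shown here, 3 of them histone genes, because the histone genes moved together. They are the 250 bases before the annotated start, from RefSeq on GRCm38.p6, printed on the strand of the gene, while the deposited values were made on mm9. Capitals mark matches, in either direction, to the CCAAT box (CCAAT), the TATA box (TATAAA) and the octamer (ATTTGCAT), letters known from histone promoters.
Hist2h2bb (chr3:96269450-96269699, plus strand): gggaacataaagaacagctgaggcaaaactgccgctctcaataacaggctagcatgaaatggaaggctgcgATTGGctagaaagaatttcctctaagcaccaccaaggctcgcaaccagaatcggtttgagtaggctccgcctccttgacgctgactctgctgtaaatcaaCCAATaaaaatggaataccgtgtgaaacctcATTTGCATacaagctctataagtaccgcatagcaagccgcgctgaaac
Hist1h2ac (chr13:23683960-23684209, minus strand): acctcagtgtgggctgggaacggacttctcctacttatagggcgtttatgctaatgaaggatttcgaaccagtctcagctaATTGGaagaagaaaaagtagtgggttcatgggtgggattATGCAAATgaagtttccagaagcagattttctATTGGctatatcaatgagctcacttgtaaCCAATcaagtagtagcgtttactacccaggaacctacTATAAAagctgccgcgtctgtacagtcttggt
Hist1h4i (chr13:22041363-22041612, minus strand): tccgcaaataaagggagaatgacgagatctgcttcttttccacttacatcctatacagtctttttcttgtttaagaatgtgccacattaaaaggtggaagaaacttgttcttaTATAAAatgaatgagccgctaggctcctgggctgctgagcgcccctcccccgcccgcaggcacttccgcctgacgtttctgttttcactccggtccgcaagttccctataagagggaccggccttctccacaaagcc
Txnip (chr3:96557707-96557956, plus strand): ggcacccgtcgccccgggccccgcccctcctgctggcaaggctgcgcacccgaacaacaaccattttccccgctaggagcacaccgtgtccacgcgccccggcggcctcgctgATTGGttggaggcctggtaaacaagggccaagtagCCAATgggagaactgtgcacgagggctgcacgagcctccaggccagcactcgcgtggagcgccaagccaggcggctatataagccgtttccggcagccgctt
Hexim1 (chr11:103116075-103116324, plus strand): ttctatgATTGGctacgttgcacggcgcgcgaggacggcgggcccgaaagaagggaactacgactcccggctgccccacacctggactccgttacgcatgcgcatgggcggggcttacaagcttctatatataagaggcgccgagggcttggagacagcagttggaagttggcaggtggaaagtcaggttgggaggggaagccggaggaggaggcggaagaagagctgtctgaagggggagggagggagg
Hist2h2bb holds 2 CCAAT matches and 1 octamer, Hist1h2ac 3 CCAAT matches with 1 TATAAA match and 1 octamer, and Hist1h4i 1 TATAAA match. That of Hist1h4i lies near the middle of the printed bases, not close to the start. Txnip holds 2 CCAAT matches and Hexim1 holds 1. Near matches to TATAAA were not marked, such as ctataag in Hist1h4i and Hist2h2bb, tatataag in Txnip and tatatataag in Hexim1. Over windows of 300 bases, 250 before to 50 after the start, 59 clustered histone genes could be matched. CCAAT was found in 84.7% of these and in 37.4% of 32851 RefSeq promoters, TATAAA in 57.6% and 13.6%, and ATTTGCAT in 20.3% and 1.74%. The E-box CACGTG, the letters that Myc and Max bind, was found in 0 of the 59 and in 7.15% of all. These are matches of letters only.

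The histone variant genes outside the clusters, most of whose mRNAs carry poly(A), were less uniform. Of 10 tested, 6 were higher and 2 lower. H3f3b, a gene of histone H3.3, was at 1490, 1580 and 1600 FPKM against 507, 527 and 537 FPKM, 2.98-fold higher. Its sister gene H3f3a rose 1.57-fold, to 1140 ± 8.92 FPKM. H2afx, the variant that is phosphorylated at DNA breaks, rose from 25.9 ± 1.93 to 93.9 ± 6.5 FPKM, and the linker histones H1f0 and H1fx rose 2.29-fold and 2.08-fold. H2afv rose by 0.40 ± 0.15 on the log2 scale, a call lost without any 1 of the 6 libraries (adjusted p 0.0569 to 0.141). H2afy2, a macroH2A gene, fell from 50.0 ± 3.28 to 16.1 ± 1.04 FPKM, and H2afy fell by 0.33 ± 0.12 on the log2 scale, not called after the scaling to a common median ratio (adjusted p = 0.178) or without (+)-JQ1 replicate 1 or 3 or (−)-JQ1 replicate 2 or 3 (adjusted p 0.0702 to 0.103). H2afz (adjusted p = 0.234) and H2afj (adjusted p = 0.329) did not pass. H2afz did with the 6 libraries alone (adjusted p = 0.00953), with library weights (0.0228) and without 2 libraries of the 0.2 µM, 24 h groups that were rich in the short RNA Mir5105 (0.0371). Among 39 genes of histone deacetylases and other chromatin enzymes, 6 were higher (15.4%, against 12.2% of all genes tested) and 13 lower (33.3%, against 26.1%). After the scaling to a common median ratio, 11 were higher and 8 lower. The cytoplasmic deacetylase Hdac6 rose from 12.2 ± 1.14 to 26.0 ± 1.88 FPKM, while Hdac11, Hdac7 and the acetyltransferase Kat2a fell to 0.425, 0.46 and 0.489 of the control mean.

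By the same rule, Txnip was the only gene outside the histone genes among the 12 largest rises. It encodes a protein that binds thioredoxin and restrains glucose uptake, and stood at 64.3, 64.9 and 72.7 FPKM against 13.1, 9.69 and 10.3 FPKM (6.12-fold, log2 fold change 2.52 ± 0.15). Its relatives Arrdc4 and Arrdc3 rose 2.27-fold and 1.79-fold. In the list of 24 genes of glycolysis that holds them, 8 were higher and 9 lower and the median was 0.00. Ligands and receptors were among the other rises. Unc5b, a netrin receptor, rose from 0.673 ± 0.166 to 6.76 ± 0.886 FPKM, 10.0-fold. Jag1, a Notch ligand, went from 1.63, 2.22 and 1.92 FPKM to 10.4, 13.3 and 8.7 FPKM. Efnb2, an ephrin, went from 6.34 ± 0.809 to 26.5 ± 1.66 FPKM, and Serpini1, neuroserpin, from 3.32 ± 0.176 to 13.3 ± 2.61 FPKM. The class I antigen-presenting genes H2-D1 and H2-K1 rose 3.41-fold and 3.02-fold, while the interferon-induced Ifitm2 and Ifitm3 fell 4.17-fold and 4.96-fold. Of 21 genes of that list, 6 were higher and 6 lower.

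**Figure D3:**
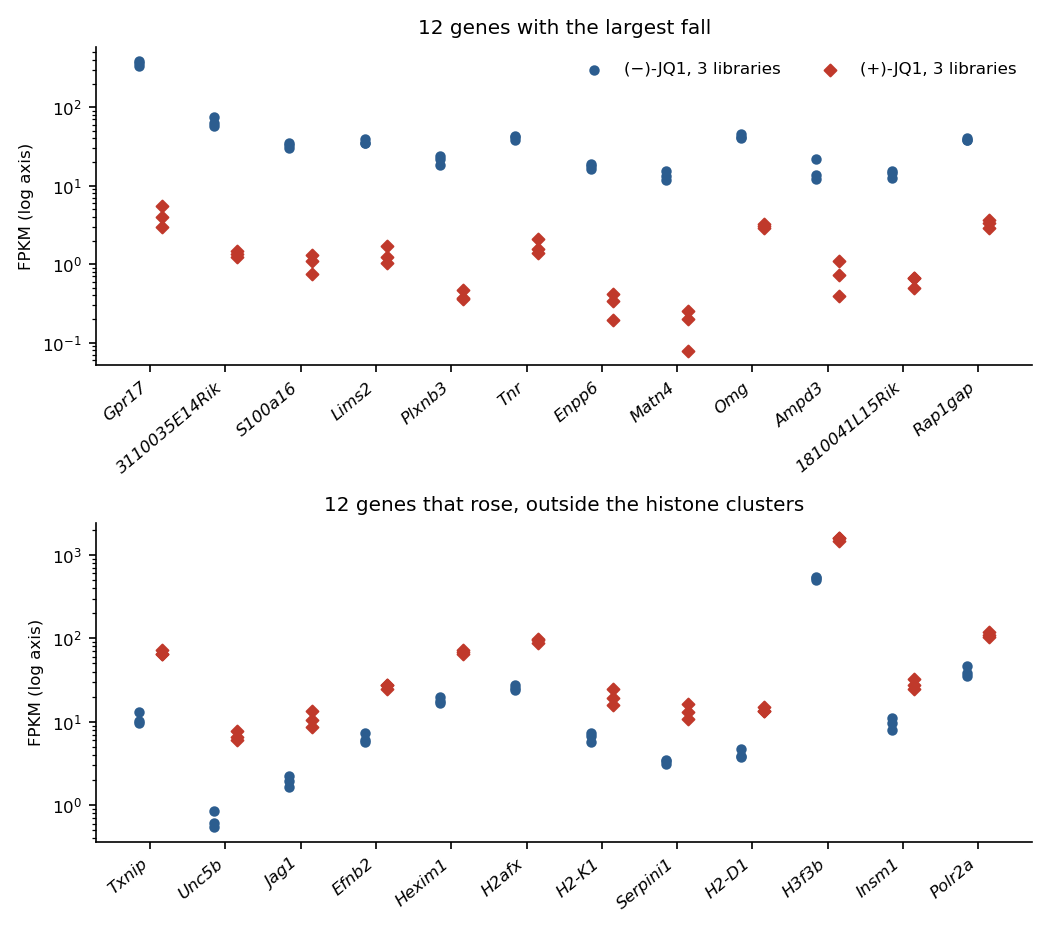
FPKM (log axis) in each of the 3 (−)-JQ1 libraries (circles) and 3 (+)-JQ1 libraries (diamonds), for the 12 genes with the largest fall (upper panel) and for 12 named genes that rose outside the histone clusters (lower panel). No gene shown has overlapping groups; Gpr17 runs from 335 or more down to 5.52 FPKM or less.

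The oligodendrocyte lineage held the deepest falls. Of 20 genes of oligodendrocyte precursors tested, 17 were lower and none higher, with a median log2 fold change of −1.45. Gpr17, a receptor of precursors that commit to differentiation, was at 383, 335 and 368 FPKM with (−)-JQ1 and at 5.52, 3.93 and 2.95 FPKM with (+)-JQ1. This 87.7-fold difference in means was the largest fall of all genes named (log2 fold change −6.17 ± 0.21, adjusted p = 1.17e-14). Enpp6, an enzyme of newly forming oligodendrocytes, was at 18.9, 17.6 and 16.2 FPKM against 0.337, 0.196 and 0.419 FPKM. Tnr, the matrix protein tenascin-R, was at 43.3, 42.1 and 38.2 FPKM against 2.12, 1.39 and 1.55 FPKM. In each of these 3 genes, every treated library lay more than an order of magnitude under every control. Bcas1 fell 5.81-fold, from 241 ± 18.1 to 41.5 ± 6.65 FPKM. The factors that specify the lineage moved less. Sox10 fell from 87.7 ± 7.36 to 31.2 ± 6.62 FPKM, the growth factor receptor Pdgfra from 43.2 ± 3.91 to 15.5 ± 0.415 FPKM, and Olig2 from 350 ± 25.6 to 221 ± 11.3 FPKM. Olig1 was at 306, 347 and 342 FPKM against 446, 452 and 487 FPKM. Its groups did not overlap, but it was not called (log2 fold change −0.48 ± 0.29, adjusted p = 0.207), though it passed with the 6 libraries alone (adjusted p = 0.00126) and with library weights (adjusted p = 0.0244).

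Myelin genes were already expressed in the control cultures and fell as a group. Of 14 tested, 11 were lower and none higher, with a median of −1.66, and their sum was 188 to 207 FPKM with (+)-JQ1 against 745 to 835 FPKM with (−)-JQ1. Gm98, the file's symbol for the myelin regulatory factor Myrf, was at 27.9, 26.2 and 21.7 FPKM with (−)-JQ1 and at 2.93, 2.26 and 2.71 FPKM with (+)-JQ1. The groups lay far apart, 9.59-fold in the means. Mag and Cldn11, of the axon-facing membrane and of tight junctions in myelin, fell 33.5-fold and 9.43-fold.

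The 12 largest falls among genes with a mean of at least 5 FPKM, short RNA genes apart, were Gpr17, 3110035E14Rik, S100a16, Lims2, Plxnb3, Tnr, Enpp6, Matn4, Omg, Ampd3, 1810041L15Rik and Rap1gap. They had log2 fold changes from −6.17 to −3.22. 3110035E14Rik, a gene of unclear role, went from 74.0, 58.0 and 63.7 FPKM to 1.35, 1.24 and 1.46 FPKM. Plxnb3, a semaphorin receptor, went from 21.7, 24.2 and 18.5 FPKM to 0.469, 0.359 and 0.368 FPKM. Omg, oligodendrocyte myelin glycoprotein, fell from 42.9 ± 2.65 to 3.07 ± 0.199 FPKM, and Matn4, a matrix protein, fell 77.1-fold from 13.6 ± 1.81 FPKM. S100a16, a calcium-binding protein, fell 31.5-fold, Lims2, an adaptor of integrin adhesion, 27.7-fold, and Rap1gap, which switches off the small GTPase Rap1, 11.8-fold. In 9 genes, all (−)-JQ1 libraries held at least 1 FPKM and all (+)-JQ1 libraries under 0.1 FPKM, and in 0 genes was it the other way round. Those 9, singled out after their values were seen, were Atp10b, Col9a1, Fam70b, Lgi4, Lingo2, Lrtm2, Neu4, 5430435G22Rik and Gm4876.

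Astrocyte genes were mostly lower. Of 24 tested, 13 were lower and 1 higher, with a median of −0.73. Aqp4, the water channel of astrocyte endfeet, was at 132, 111 and 98.8 FPKM with (−)-JQ1 and at 18.5, 13.1 and 11.1 FPKM with (+)-JQ1. S100b fell from 20.6 ± 4.43 to 2.1 ± 0.334 FPKM, Acsl6, a fatty acid ligase, from 11.8 ± 0.994 to 2.59 ± 0.145 FPKM, and Gfap, the astrocyte filament, from 281 ± 23.3 to 134 ± 24.4 FPKM. The list's rise was Sox9, which specifies glia, from 110 ± 10.3 to 157 ± 6.6 FPKM. Ependymal markers were lower as well: Foxj1, the switch for motile cilia, was at 8.92, 15.5 and 10.8 FPKM against 3.52, 3.45 and 2.49 FPKM, and Dynlrb2 and Rsph1 fell 3.88-fold and 3.19-fold. Otx2, in the same list, rose 1.61-fold. The matrix and adhesion list, which shares Tnr and other glial genes, had 14 of 36 lower and 3 higher. Cd82, a tetraspanin, fell 13.9-fold, and the protease gene Mmp14 5.1-fold.

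Pathways that steer progenitors toward glia were examined through the mRNAs of their ligands, receptors and targets. The activity of these pathways was not tested. BMPs act through Smads to raise the Id proteins, inhibitors of proneural factors. The ligand Bmp4 was at 10.4, 8.42 and 6.93 FPKM with (−)-JQ1 and at 0.771, 0.75 and 0.641 FPKM with (+)-JQ1, 11.9-fold lower. Bmper, a secreted BMP regulator, fell 2.27-fold. Of the targets, Id3 was at 53.6, 62.4 and 50.0 FPKM against 7.72, 19.1 and 11.5 FPKM, and Id1 fell from 14.7 ± 2.83 to 4.59 ± 1.32 FPKM. The list had 8 of 19 lower, 1 higher and a median of −0.28. In the JAK-STAT list, 4 of 16 were higher and 5 lower, and 1 to 5 lower without 1 of the 6 libraries. The shared cytokine receptor Il6st rose from 25.3 ± 1.51 to 46.9 ± 2.13 FPKM, Stat5b fell 2.18-fold, and the feedback inhibitor Socs2 fell 1.74-fold, a call lost without (+)-JQ1 replicate 3 (adjusted p = 0.0509). Cntfr, the receptor of ciliary neurotrophic factor, was called lower (47.2, 56.6 and 29.7 against 27.1, 35.1 and 15.9 FPKM), but its groups overlapped and the call was lost in 8 alternatives (adjusted p up to 0.251 without (+)-JQ1 replicate 3). Of 24 genes of FGF and EGF signalling and its feedback, 9 were lower and 1 higher. Fgf1 fell 7.25-fold from 3.54 ± 1.48 FPKM, and the ETS factors Etv1 and Etv4, which report on FGF signalling, fell 2.27-fold and 2.52-fold.

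Genes of neural stem cells and radial glia leaned upward. Of 23 tested, 11 were higher and 3 lower, with a median of 0.33, and 16 and 3 after the scaling to a common median ratio. Fabp7, a lipid carrier of radial glia and among the most abundant mRNAs here, was at 3190, 2490 and 2920 FPKM against 1670, 1410 and 1630 FPKM (log2 fold change 0.87 ± 0.27, adjusted p = 0.0131). Its call was lost by a small margin without (+)-JQ1 replicate 1 (adjusted p = 0.0525) or (−)-JQ1 replicate 2 (adjusted p = 0.0504). The filament genes Nes and Vim rose 1.77-fold and 1.55-fold, and the forebrain factor Emx2 rose 1.43-fold. Sox2 was at 227 ± 7.53 against 201 ± 8.21 FPKM (adjusted p = 0.346), Pax6 at 23.4 ± 4.92 against 18.3 ± 1.69 FPKM (adjusted p = 0.10), Sox1 at 28.5 ± 4.73 against 22.8 ± 3.08 FPKM (adjusted p = 0.088), and none of these passed. Sox1 and Pax6 were called higher after the scaling to a common median ratio (adjusted p = 0.0243 and 0.0363), with library weights (0.0347 and 0.0324) and without (+)-JQ1 replicate 3 (0.0353 and 0.0351), and Sox1 also without (−)-JQ1 replicate 2 (0.0455). The RNA-binding protein Msi1 fell from 46.0 ± 8.81 to 22.3 ± 3.81 FPKM, Tnc, tenascin-C, 3.4-fold, and Hopx 4.15-fold.

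Notch signalling keeps progenitors from differentiating, through ligands on neighbouring cells and the Hes and Hey repressors. Of 19 genes tested, 6 were higher and 5 lower, or 11 and 3 after the scaling to a common median ratio, and 2 to 5 were lower without 1 of the 6 libraries. Besides the ligand Jag1, the target Hes5 rose, from 87.2, 80.6 and 56.9 FPKM to 163, 168 and 141 FPKM (log2 fold change 1.08 ± 0.27), while the target Hes1 was at 13.8 ± 1.81 against 11.1 ± 2.18 FPKM and did not pass (adjusted p = 0.128), though it did after that scaling (0.0217), with library weights (0.0403) and without (−)-JQ1 replicate 2 (0.0386). Dll3, an inhibitory member of the ligand family, fell from 71.3 ± 8.8 to 34.3 ± 5.99 FPKM. Mfng, a sugar transferase that modifies Notch, went from 9.54, 12.0 and 8.11 FPKM to 0.246, 0.394 and 0.21 FPKM, the largest fall of the list. Of 27 Wnt pathway genes, 12 were higher and 6 lower, or 13 and 4 after that scaling. Without 1 of the 6 libraries, 8 to 11 Wnt pathway genes were higher and 5 to 7 lower. The ligand Wnt7b fell 5.59-fold, from 36.7 ± 5.69 to 6.57 ± 1.13 FPKM, and the co-receptor Lrp5 2.33-fold, whereas Lgr4, a receptor of the R-spondins, and the feedback inhibitor Nkd1 rose 2.00-fold and 2.04-fold. In the Hedgehog list of 10, Ptch1, Sufu and Gas1 rose 1.53-fold, 1.58-fold and 1.45-fold, Gli2 and Disp1 fell 2.03-fold and 1.66-fold, and Smo, Gli3, Kif7, Boc and Cdon were not called. Smo was called lower with the 6 libraries alone (adjusted p = 0.00981), with library weights (0.00686) and without the 2 libraries rich in Mir5105 (0.00418), and Kif7 with library weights (0.0436). The call of Sufu was lost without any library but (+)-JQ1 replicate 1 (adjusted p up to 0.202), and that of Gas1 without (+)-JQ1 replicate 3 or (−)-JQ1 replicate 2 (adjusted p up to 0.16).

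Neuronal genes changed in both directions. Of 19 proneural and neurogenic factors, 5 were higher and 7 lower, with a median of 0.10. Insm1, which acts in neurogenic divisions, went from 9.71, 11.0 and 7.89 FPKM to 27.6, 32.9 and 24.7 FPKM, Sox11 from 34.2, 41.9 and 33.3 FPKM to 81.6, 89.6 and 92.9 FPKM, and Hes6 from 48.7 ± 1.05 to 103 ± 15.8 FPKM. Prox1 rose 1.84-fold. Neurog2 and Neurod1, which drive cortical excitatory neurogenesis, were low throughout, at 1.17 ± 0.415 and 0.897 ± 0.32 FPKM with (−)-JQ1, and fell to 0.341 ± 0.0941 and 0.322 ± 0.0711 FPKM. The call of Neurod1 was lost without (+)-JQ1 replicate 1 or 3 or (−)-JQ1 replicate 2 (adjusted p up to 0.145).

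Genes of young neurons were more often lower than higher. Of 28 genes of the neuronal cytoskeleton and growth cone, 12 were lower (42.9%, against 26.1% of all genes tested). In the same list, 4 were higher (14.3%, against 12.2%). After the scaling to a common median ratio, 9 were lower and 5 higher. Without 1 of the 6 libraries, 10 to 11 were lower and 2 to 3 higher. Dcx, the microtubule protein of migrating neurons, was at 26.2, 29.2 and 31.2 FPKM with (−)-JQ1 and at 9.19, 8.24 and 9.75 FPKM with (+)-JQ1. Gap43, of the growth cone, fell from 15.1 ± 0.479 to 2.17 ± 0.527 FPKM, and Stmn3 2.75-fold. Tubb3, neuronal tubulin, moved against these, from 78.8, 80.5 and 75.1 FPKM to 113, 166 and 109 FPKM (log2 fold change 0.69 ± 0.18). Of 28 synapse genes, 13 were lower and 5 higher. The complexins Cplx2 and Cplx1, which clamp vesicle fusion, fell 3.7-fold and 3.95-fold, and Nlgn1, a postsynaptic adhesion protein, fell 2.14-fold. Of 49 potassium, sodium and calcium channel genes tested of 133 in the files, 31 were lower and 3 higher, with a median of −0.53. Kcnip2, a partner of potassium channels, went from 9.54, 10.3 and 12.8 FPKM to 0.7, 0.35 and 0.562 FPKM, and Kcnk2, Kcnj16 and Kcne1l fell 6.24-fold, 5.38-fold and 4.22-fold. Of 28 receptor subunits for glutamate, GABA and acetylcholine, 17 were lower and 3 higher, with a median of −0.62. After the scaling to a common median ratio, 14 of these subunits were lower and 3 higher. Without 1 of the 6 libraries, 13 to 16 were lower and 2 to 3 higher. Grin3a, an NMDA receptor subunit, fell 15.3-fold from 9.55 ± 0.801 FPKM, the nicotinic subunit Chrna4 7.82-fold from 8.58 ± 1.24 FPKM, and the kainate receptor subunit Grik5 2.71-fold from 29.5 ± 1.7 FPKM. Astrocytes and oligodendrocyte precursors express several of these channels and receptors too. Of 16 interneuron genes, 3 were higher (18.8%, against 12.2% of all genes tested) and 2 lower (12.5%, against 26.1%). Meis2 rose from 27.3 ± 3.1 to 51.5 ± 4.37 FPKM and Sp9 2.04-fold, though 4 alternatives lost the call of Sp9 (adjusted p up to 0.0977 without (−)-JQ1 replicate 3). Sp8 rose 1.43-fold, a call that 8 alternatives lost (adjusted p up to 0.266 without (+)-JQ1 replicate 2). Dlx2 was at 37.3, 64.8 and 33.1 against 25.6, 34.6 and 21.3 FPKM (adjusted p = 0.0898, and 0.0456 after the scaling to a common median ratio). Of 40 axon guidance genes, 13 rose and 11 fell, among them Sema5a, a transmembrane semaphorin, 7.15-fold lower.

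**Figure D4:**
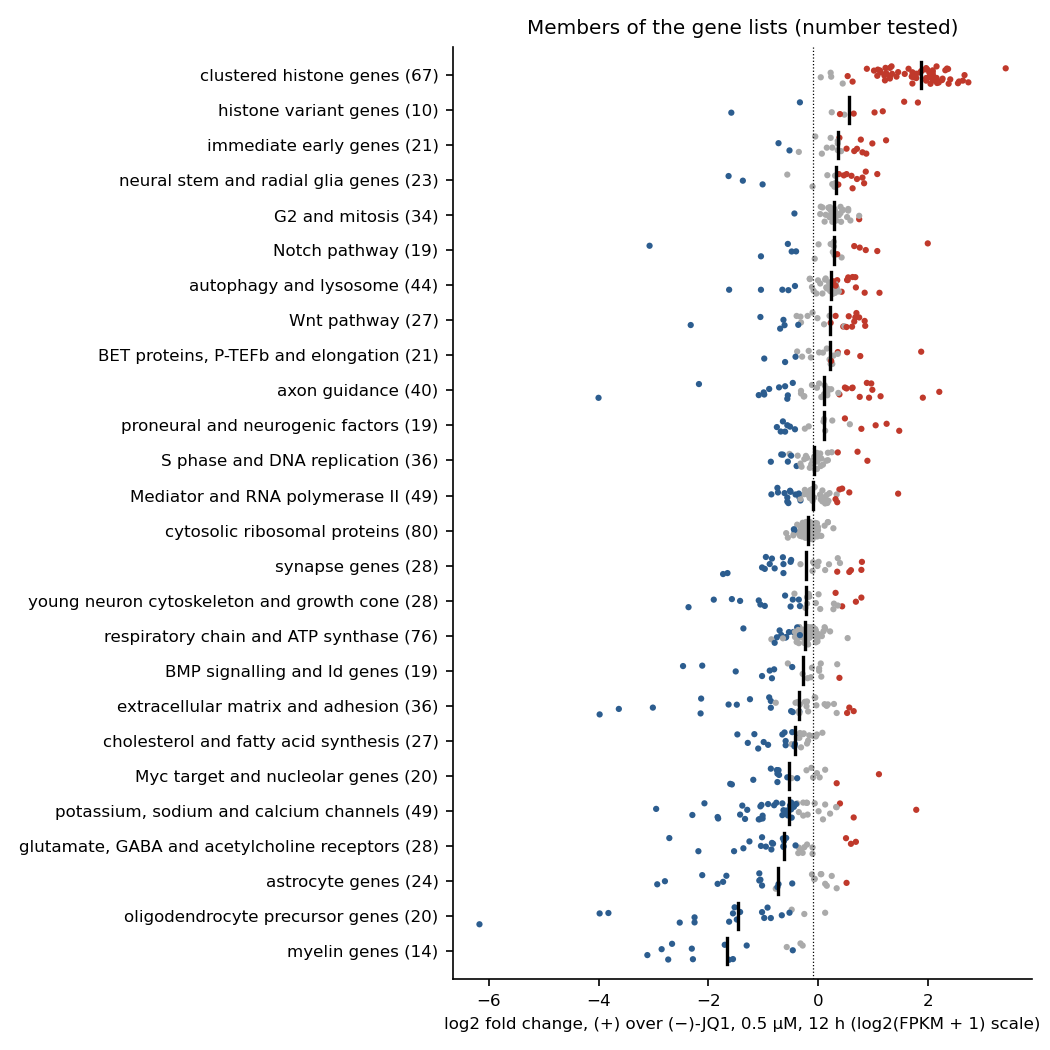
Log2 fold change (log2(FPKM + 1) scale) between (+) and (−)-JQ1 at 0.5 µM and 12 h of every tested member of 26 gene lists, with the number tested beside each name. Each point is a gene, red if called higher, blue if lower and grey if not called; black bars are list medians, from −1.66 for myelin genes to 1.88 for clustered histone genes, and the dotted line is the median of all genes, −0.10.

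In the lists for S phase and for G2 and mitosis, 25% and 5.88% of the genes tested were called, against 38.3% of all genes. Of 36 S phase genes, 3 were higher and 6 lower, with a median of −0.08. The count of lower genes was 3 without (+)-JQ1 replicate 1, 2 without (+)-JQ1 replicate 2, 4 without (−)-JQ1 replicate 1 or 2, and 5 or 7 without the others. Pcna, the sliding clamp of replication, rose from 51.2 ± 4.78 to 95.9 ± 6.52 FPKM, and Slbp, which binds the stem-loop of histone mRNAs, from 16.1 ± 0.947 to 27.1 ± 2.74 FPKM. The helicase subunits Mcm2 and Mcm3 fell 2.02-fold and 1.9-fold, the latter not called without (+)-JQ1 replicate 2 (adjusted p = 0.105). Of 34 genes of G2 and mitosis, 1 was higher and 1, Cdc25b, lower. Cdc25b was not called without any 1 of the 6 libraries (adjusted p 0.0581 to 0.101). Their sum was 68.3, 67.1 and 168 FPKM with (+)-JQ1 and 52.7, 60.0 and 99.7 FPKM with (−)-JQ1, so that replicate 3 stood apart in both groups. The list's median of 0.29 was −0.02 without (+)-JQ1 replicate 3. Mki67, the proliferation antigen, stood apart in the same library: 2.06, 1.71 and 6.2 FPKM against 1.55, 1.65 and 2.65 FPKM (adjusted p = 0.288). Cdkn1a was at 20.2, 15.9 and 43.8 against 27.8, 24.3 and 48.8 FPKM (adjusted p = 0.409). Over the histone genes, the median without (+)-JQ1 replicate 3 was 1.78 and 62 were higher. Of 18 genes of G1, 5 were lower (27.8%) and 3 higher (16.7%), shares close to the 26.1% and 12.2% of all genes tested. The cyclins Ccnd1 and Ccnd2 fell 2.32-fold and 1.74-fold, the phosphatase Cdc25a 2.18-fold, and the inhibitor Cdkn1c from 66.6 ± 10.8 to 36.2 ± 12.9 FPKM, not called without (+)-JQ1 replicate 3 (adjusted p = 0.051).

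Among early response genes, rises outnumbered falls. Of 21 immediate early genes, 9 were higher and 2 lower, with a median of 0.36. Ier2 rose from 6.07 ± 0.591 to 15.8 ± 2.35 FPKM, Egr1 from 17.5 ± 3.38 to 31.6 ± 7.14 FPKM, and Btg1 and Nr4a2 2.08-fold and 2.37-fold. Fos, the best known of them, was at 7.99, 12.1 and 12.1 against 7.08, 9.09 and 6.91 FPKM, with overlapping groups (adjusted p = 0.162, but 0.0463 after the scaling to a common median ratio and 0.0497 with library weights). Of 29 genes of the p53 response and the Bcl2 family, 8 were higher (27.6%, against 12.2% of all genes tested). In this list, 7 were lower (24.1%, against 26.1%). Without 1 of the 6 libraries, 5 to 8 were higher and 4 to 7 lower. The death effectors went apart: Bcl2l11 rose from 8.97 ± 1.44 to 19.5 ± 2.06 FPKM and Bak1 fell from 33.1 ± 1.97 to 8.93 ± 1.58 FPKM. Trp53 fell 1.79-fold and Gadd45a rose 2.21-fold. Of 27 genes of the integrated stress and unfolded protein responses, 8 were higher and 3 lower. Ddit4 rose from 42.5 ± 3.75 to 81.7 ± 1.97 FPKM and Ddit3 1.88-fold, and Herpud1 fell 2.17-fold.

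Every called gene of cholesterol and fatty acid synthesis was lower. Of 27 tested, 14 were lower and none higher, or 9 and none after the scaling to a common median ratio, and 8 to 18 and none without 1 of the 6 libraries. The median was −0.42. Fdps, of the isoprenoid branch, fell from 65.5, 39.2 and 63.6 FPKM to 23.2, 17.5 and 25.9 FPKM, and the regulator Srebf1 2.31-fold. Idi1, of the same branch, fell 2.18-fold. Of 44 autophagy and lysosome genes, 13 were higher and 5 lower, and 26 and 5 after that scaling. The kinase Ulk2 rose from 23.5 ± 0.488 to 52.2 ± 0.683 FPKM and Atg12 1.83-fold, while Tfeb, a master regulator of lysosome genes, fell 3.05-fold and Cln3 4.18-fold. Sqstm1 was at 146 ± 5.41 against 122 ± 15.6 FPKM (adjusted p = 0.126, and 0.0261 to 0.048 after that scaling, with library weights or with the 6 libraries alone). Of 76 genes of the respiratory chain and ATP synthase, 13 were lower and none higher, with 5 lower and 1 higher after that scaling and 6 to 11 lower without 1 of the 6 libraries. The 17.1% lower is a smaller share than the 26.1% of all genes tested. Atp5e fell 2.6-fold and Atp5g1 1.74-fold. Of 36 proteasome genes, 2 were higher (5.56%) and 1 lower (2.78%). Of 18 clock genes, 3 were higher (16.7%), Hlf among them at 3.06-fold, and 5 lower (27.8%), such as Bhlhe40 at 2.49-fold. The clock shares are close to the 12.2% and 26.1% of all genes tested. The list of retinoid, Hippo and TGF-beta genes had 8 of 19 lower and 2 higher, with the receptors Rara and Rxra 2.2-fold and 1.89-fold lower.

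The same contrast at 0.2 µM and 12 h called fewer genes, 3846 (27.9%). Of these, 3630 were called in the same direction at 0.5 µM, which is 94.4% of the calls at the lower dose and 68.7% of those at the higher, and 0 in the opposite one. The change was larger at 0.5 µM for 3069 of the 3846 (79.8%). A direct test of the difference between doses was passed by only 6 genes (0.0435%), all lower at the higher dose. Gpr17 had the largest difference, −2.80 ± 0.30 (adjusted p = 0.000103). It averaged 36.2 ± 13.4 FPKM at 0.2 µM and 4.13 ± 1.30 FPKM at 0.5 µM of (+)-JQ1, with 370 ± 25.9 and 362 ± 24.5 FPKM in the controls. The others were 3110035E14Rik (−1.22), Enpp6 (−1.12), 1810041L15Rik (−0.98), Rap1gap (−0.93) and Slc1a1 (−0.85), all with an adjusted p of 0.0143 to 0.0261. Slc1a1, a glutamate transporter, is named after its value was seen. Without any 1 of the 6 libraries, 1 to 4 genes passed this test.

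Between 12 and 24 h at 0.5 µM, the number of calls hardly changed, 5281 and 5273 (38.2%), with 4093 in common in direction (77.5% of the calls at 12 h, 77.6% of those at 24 h) and 8 opposite. The difference of the effects was called for 45 genes (0.326%). In 35 (0.254%) the effect was more positive, or less negative, at 12 h. Mki67 was not called at 12 h (0.42 ± 0.30) but was lower at 24 h (−1.59 ± 0.30), a difference of 2.01 (adjusted p = 0.0398). At 24 h it averaged 0.315 ± 0.191 FPKM with (+)-JQ1 and 3.00 ± 0.966 FPKM with (−)-JQ1. Rrm2, a subunit of the enzyme that makes deoxyribonucleotides, and 2810417H13Rik went the same way, with differences of 1.84 and 1.72. Scrg1, Enpp6 and Acta2 were lower at both times, with a larger effect at 24 h, where the control levels were also higher. Enpp6 averaged 0.317 ± 0.112 FPKM at 12 h and 0.212 ± 0.0921 FPKM at 24 h with (+)-JQ1, and 17.6 ± 1.34 and 47.4 ± 8.41 FPKM with (−)-JQ1. Scrg1 averaged 7.53 ± 1.23 and 4.29 ± 0.563 FPKM with (+)-JQ1, against means of 60.6 and 118 FPKM with (−)-JQ1. Unc5b was raised more at the earlier time, with a log2 fold change of 2.21 ± 0.18 at 12 h and 1.05 ± 0.18 at 24 h. The remaining 10 differences (0.0725%) were negative. Jag1 had risen by 2.00 ± 0.13 at 12 h and reached 2.99 ± 0.13 at 24 h, with 10.8 ± 2.32 and 17.6 ± 0.749 FPKM. Nsg2, a neuronal vesicle protein, was lower by 1.90 ± 0.09 at 12 h and 0.87 ± 0.09 at 24 h. Pcp4, a calmodulin regulator of neurons, changed sign: it was at 4.32 ± 1.35 against 13.3 ± 1.68 FPKM at 12 h and at 41.4 ± 2.21 against 21.4 ± 5.30 FPKM at 24 h, a difference of −2.41 ± 0.32 (adjusted p = 0.000541). Bmper did likewise, from −1.02 ± 0.14 to 0.43 ± 0.14. Without any 1 of the 6 libraries at 12 h, 21 to 33 genes had a called difference.

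**Figure D5:**
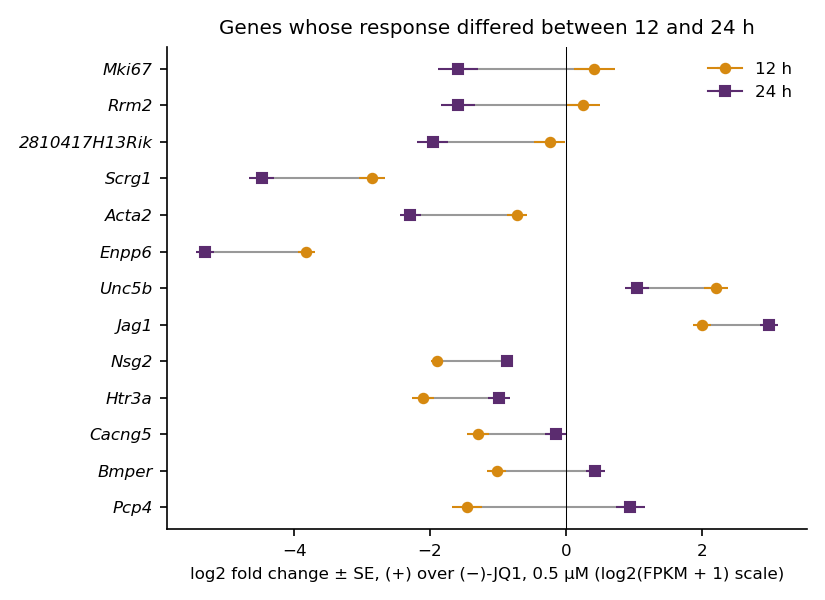
Log2 fold change ± SE between (+) and (−)-JQ1 at 0.5 µM (log2(FPKM + 1) scale) at 12 h (circles) and 24 h (squares) for 13 genes whose effect differed between the times. Mki67, Rrm2 and 2810417H13Rik lie near 0 at 12 h and well below it at 24 h, and Pcp4 moves from −1.46 to 0.95.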

How the data were processed

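RNA from mouse cortical progenitor cultures was poly(A)-selected, primed with random hexamers and sequenced as single reads of 50 bases, per the labels' protocols. FastQC and TopHat2 are named, with the mm9 build, in the submitters' processing notes; what program and annotation gave the values is not given in the sources used here. Per library, the authors deposited FPKM values for 26694 entries, and 58 entries of 29 repeated symbols were left out here. FPKM carry no absolute depth, so no counting intervals are given, and a test on counts was not made. Summed FPKM ran from 450021 to 487308 in the (+)-JQ1 libraries compared and from 450907 to 496218 in their controls, of which the short RNA Mir5105 took at most 6.5% (46.9% at most over the 24 libraries).

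Log2(FPKM + 1) was fitted for 13801 genes over all 24 libraries in 8 groups (16 residual degrees of freedom) with limma 3.58.1 in R 4.3.3, using empirical Bayes with trend and robust options and Benjamini-Hochberg adjustment. The procedure was also run on simulated normal values, drawn independently for each library, with few genes changed. Such settings differ from these data, where many genes were called, so no conclusion is drawn from that run. The other doses and times have their own controls. Genes named are the 12 largest rises and falls with a mean of at least 5 FPKM and groups that do not overlap. Up to 4 called members per list with a mean of at least 2 FPKM are named too. So are a preset list, the 4 largest differences of each kind, and members of lists with under 12 measured. Short RNA genes were left out of the largest rises, falls and differences. The comparison and the lists were chosen with earlier results of these data known. Lists are described by counts and medians only. Alternatives were a pseudocount of 0.1, no filter, a filter at 5 FPKM, median-of-ratios scaling, the 6 libraries alone, library weights, plain empirical Bayes, a replicate block, leaving out 2 libraries rich in Mir5105, and leaving out each of the 6. Some genes are not reported here.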

Additional observations from a re-analysis of the deposited data

Results flagged for a closer look

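Effects that differed between groups under the same contrast, by a test of the difference itself, are given here as log2 differences on the log2(FPKM + 1) scale. Between doses at 12 h (0.5 µM minus 0.2 µM), the named genes were Gpr17 (−2.80), 3110035E14Rik (−1.22), Enpp6 (−1.12), 1810041L15Rik (−0.98) and Rap1gap (−0.93), all lowered more at 0.5 µM. Between times at 0.5 µM (12 h minus 24 h), the oligodendrocyte gene Enpp6 differed by 1.49, Scrg1 by 1.63 and the smooth muscle actin gene Acta2 by 1.57, each with a larger effect at 24 h, where the control levels were also higher. The proliferation genes Mki67 (2.01) and Rrm2 (1.84), and 2810417H13Rik (1.72), were not called at 12 h and were lower at 24 h. Unc5b (1.16) was raised less at 24 h and Jag1 (−0.99) more. Nsg2 (−1.03), Rap1gap (−0.96), the serotonin receptor Htr3a (−1.11) and the channel subunit Cacng5 (−1.14) were lowered more at 12 h than at 24 h. Pcp4 (−2.41) and Bmper (−1.45) were lower at 12 h and higher at 24 h.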

How the results depend on the processing

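No named gene changed sign in an alternative if it was called there or in the main fit. Sign changes of genes called in neither were not counted. The 5 FPKM filter tested 203 of the 221 named genes. Alternatives other than the 5 FPKM filter kept 83.1% to 100% of the 5281 calls. The filter at 5 FPKM, which tests fewer genes, kept 72.2% and gave 2396 lower. Median-of-ratios scaling gave 2624 higher and library weights 2578. Without 1 of the 6 libraries, 1295 to 1532 genes were higher and 3046 to 3287 lower. The dose difference, called for 6 genes, gave 33 with library weights (2 higher, 31 lower), 17 without the 2 libraries rich in Mir5105, 10 with a pseudocount of 0.1, 3 with no filter, 2 with median-of-ratios scaling, and 1 to 4 without 1 library. The time difference, called for 45 genes, gave 172 with library weights (123 higher, 49 lower) and 29 with the 5 FPKM filter (21 higher). Without the 2 libraries rich in Mir5105, 17 of its calls were lower. Without 1 library it gave 21 to 33 (16 to 26 higher, 5 to 8 lower). Apart from the filter, the cause of these shifts was not tested. FPKM without read counts leave the precision of low values unknown.

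The replicate numbers were not taken to pair the samples, since not every same-numbered correlation of deviations was over 0.1 (−0.02, 0.36 and 0.18, and −0.31 to 0.17 for others). That rule cannot exclude pairing. Over all 8 groups, the median was 0.03 for same-numbered and −0.02 for other pairs. Some list sums kept 1 order by number in both groups, such as cholesterol genes (2160, 1490 and 1890 against 2440, 1650 and 2230 FPKM). Others did not, such as stress response genes (1530, 1550 and 1610 against 1560, 1410 and 1520 FPKM). P-values of the main fit use no pairing. With a replicate block, 1748 genes were higher and 3690 lower, the dose difference was called for 9 genes and the time difference for 47 (33 higher, 14 lower). Of 221 named genes, 219 kept their side of the threshold, Sp8 lost its call (adjusted p = 0.0547) and Lhx2 gained it (adjusted p = 0.0422).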
